A study of Mus musculus with 12 samples.

Results

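The mitochondrial carriers of solute carrier family 25 move metabolites, nucleotides, ions and cofactors across the inner mitochondrial membrane. The members described here are the genes whose probe sets carry a single symbol of the form Slc25a followed by a number, and there were 44 of them among 18193 genes with a symbol of their own. They were represented by 93 probe sets, from 1 probe set for 21 genes to 8 for Slc25a5.

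The series title states that ways of amplifying nanogram quantities of RNA were compared. Each of the 4 groups held 3 arrays. Kidney total RNA (Mouse Kidney RNA from Ambion) was assayed at 10 ng. Universal Mouse Reference RNA, spelt as from Strategene in the labels and known as a commercial pool of cell line RNA, was assayed at 0.3, 3 and 10 ng. All groups carry the code pRS in their titles, which the labels do not explain, and no strain, age or treatment of the source animals or cells is given. The labels do not say whether replicates were separate extractions, amplifications or only separate arrays, so p-values measure the spread between these arrays. Signals are linear intensities on a scale where the 2% trimmed mean of each array is 500, and 33.65, a level set by 27 Bacillus control probe sets, is called background here. The number of arrays limits the precision.

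In kidney, the carriers serve a tissue rich in mitochondria. Proximal tubule cells burn fatty acids and amino acids, make glucose from carboxylates and import ornithine and glutamate into the matrix. Nucleotide carriers exchange cytosolic ADP for mitochondrial ATP or adjust the size of the matrix nucleotide pool, carboxylate carriers link the tricarboxylic acid cycle to the cytosol, and metal carriers deliver iron, copper and phosphate.

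The tissue label was checked against marker genes in kidney and reference RNA at 10 ng. The summed signals of 5 proximal tubule markers and of 4 markers of the later segments (loop of Henle, distal tubule) were 39945 to 41288 and 28600 to 29465 in the kidney arrays, against 220.6 to 260.2 and 51.3 to 80.2 in the reference arrays. Those of dividing cells were 486.0 to 704.1 in kidney and 12309 to 14664 in reference RNA. Markers of other cell types also differed in summed signal: fat cells (8214.6 to 8764.2 in kidney, 378.0 to 494.1 in reference RNA), red cells (8858.5 to 9127.2, against 11.4 to 28), hepatocytes (10575 to 10949, against 70.9 to 84.6), skeletal muscle (36.1 to 84.2, against 1464.9 to 1675.0) and germ cells (4432.3 to 6270.9, against 533.6 to 916.2). Most of these markers passed the filter on low signals through 1 RNA source alone, such as 4 of the 5 proximal tubule markers and 4 of the 4 later ones through kidney, so no count of calls is given for them. Below background on every kidney array were 1 marker of dividing cells, 1 of red cells, 3 of skeletal muscle and 2 of germ cells. The 3′ to 5′ signal ratio of the beta-actin control probe sets was 5.25 to 5.50 in kidney and 3.62 to 3.94 in reference RNA, while that of Gapdh was 1.12 to 1.13 and 1.10 to 1.15. For the transferrin receptor controls the order was the other way and the groups overlapped (2.92 to 42.9 in kidney, 25.4 to 222.8 in reference RNA). The part of these differences in the carrier values was not tested, and in bulk RNA fewer cells of a type and less RNA per cell cannot be told apart.

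Most carriers were higher in kidney RNA than in the reference at the same 10 ng input. A gene was tested when its probe set passed a filter on low signals, and 39 of the 44 carriers did, 2 of them (Slc25a34 and Slc25a35) only through the kidney arrays and 1 (Slc25a47) only through reference arrays. At an adjusted p under 0.05 in limma's moderated test, 24 of the 39 were called higher, where 27.1% of the 12820 genes tested were higher, and 6 were called lower, where 35.6% of genes were. In either direction that is 30 carriers, beside 62.7% of all genes. The 3 kidney arrays all lay above the 3 reference arrays for 25 carriers and below them for 6, beside 31.7% and 41.5% of all genes. The median log2 fold change was 0.82 over the tested carriers and −0.19 over all genes tested. Fold changes are on the scale of log2(signal + 3.9), which understates the change of dim probe sets.

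**Figure D1:**
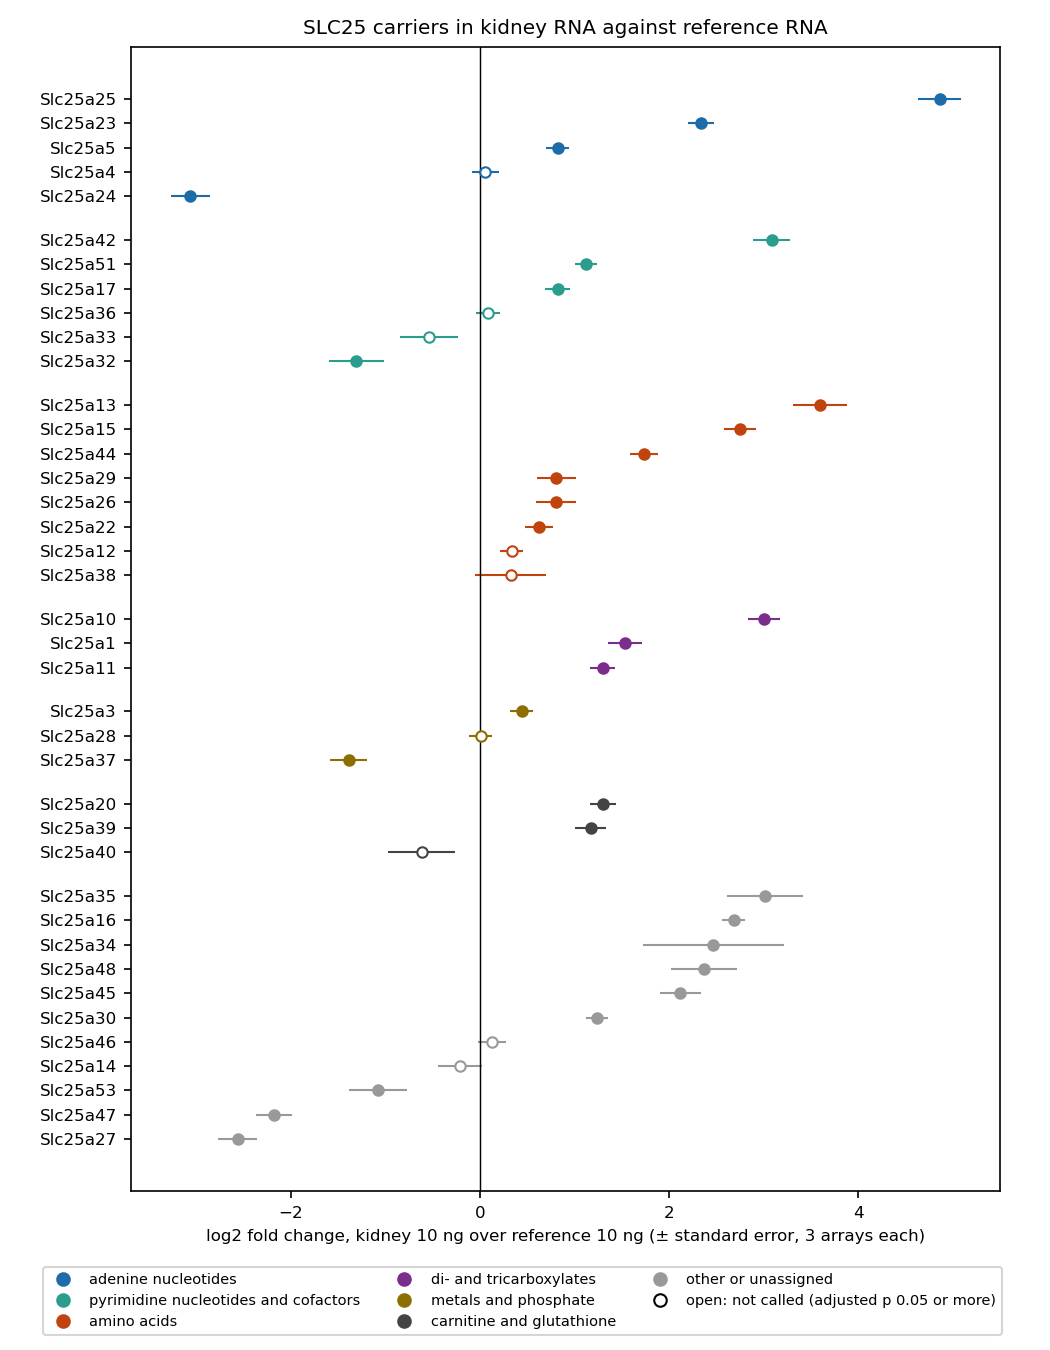
Log2 fold change of each of the 39 tested carriers, kidney 10 ng over reference 10 ng (horizontal axis, bars ± standard error, 3 arrays each), grouped and coloured by substrate; filled circles were called and open circles were not. The points run from −3.06 for Slc25a24 to 4.86 for Slc25a25, and all 3 di- and tricarboxylate carriers lie to the right of 0.

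Of the 5 tested carriers of adenine nucleotides, 3 rose and 1 fell. By the probe set standing for each gene, the 2 ends of the whole range lay within 1 subfamily. These are the calcium-regulated carriers that exchange ATP-Mg for phosphate and so change the matrix adenine nucleotide pool. Slc25a25 measured 6609.7, 5853.0 and 6825.5 in the kidney arrays, against 203.1, 172.4 and 293.9 in the reference arrays. The groups did not overlap, and the log2 fold change was 4.86 ± 0.22 (SE, n = 3 each; adjusted p = 3.82e-05). This probe set has the suffix _x_at, which marks probes shared with other sequences, and a second tested probe set of the gene gave 2.56 ± 0.60 (adjusted p = 0.0132). The mean of all its probe sets gave 2.77. By either of these values Slc25a25 would not be the upper end, since they lie below the 3.59 of the amino acid carrier Slc25a13.

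Slc25a24, another ATP-Mg carrier, went the opposite way, with 289.4, 444.5 and 347.6 in the kidney arrays against 3118.5, 2568.1 and 3354.9 in the reference arrays. Each kidney array lay far below each reference array (log2 fold change −3.06 ± 0.21, adjusted p = 0.000129), and its other tested probe set gave −2.97. The third member of the subfamily, Slc25a23, measured 702.5, 770.7 and 728.1 in kidney and 126.4, 161.1 and 141.3 in reference RNA. Its groups did not overlap either (2.33 ± 0.14, adjusted p = 8.9e-05). The promoters of the 2 carriers that went furthest in each direction, by the probe set standing for each gene, are shown next. Each window is 300 bases, from 250 before to 50 after the RefSeq start (GRCm38.p6, 5′ to 3′ on the strand of the gene). Capitals mark matches, on either strand, to the motifs described further on. Slc25a25 (gene ID 227731) has 3 such windows, and the one with a cyclic AMP response element is given, from the minus strand of chr2:32424017-32424316. That of Slc25a24 (gene ID 229731) is from the plus strand of chr3:109122899-109123198.
Slc25a25: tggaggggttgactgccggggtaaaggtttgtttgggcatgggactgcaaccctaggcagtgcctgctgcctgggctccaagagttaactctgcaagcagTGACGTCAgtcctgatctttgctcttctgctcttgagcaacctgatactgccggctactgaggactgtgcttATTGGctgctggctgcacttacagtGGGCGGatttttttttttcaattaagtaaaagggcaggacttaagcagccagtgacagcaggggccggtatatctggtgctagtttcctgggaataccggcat
Slc25a24: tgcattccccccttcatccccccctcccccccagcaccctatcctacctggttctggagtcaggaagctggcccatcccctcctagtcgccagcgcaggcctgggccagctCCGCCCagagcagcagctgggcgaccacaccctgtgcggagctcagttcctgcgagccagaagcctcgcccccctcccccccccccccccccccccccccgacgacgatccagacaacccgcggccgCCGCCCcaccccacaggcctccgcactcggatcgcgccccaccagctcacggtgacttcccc

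The ADP/ATP exchangers themselves moved less. Slc25a5, the exchanger isoform of proliferating cells, measured 10971.3, 11562.6 and 11007.5 in kidney, against 6547.5, 5891.5 and 6565.3 in reference RNA (0.82 ± 0.12, adjusted p = 0.00214). All 8 of its tested probe sets were called higher, with log2 fold changes of 0.70 to 1.86. Slc25a4, the isoform of heart and skeletal muscle, overlapped between groups, at 5816.0 to 6560.8 in kidney and 5518.8 to 6782.1 in reference RNA (0.05 ± 0.14, adjusted p = 0.758), and none of its 3 tested probe sets was called. Slc25a31, the exchanger of germ cells, and Slc25a41, an ATP-Mg carrier, did not pass the filter and were not tested.

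Of the 6 carriers of pyrimidine nucleotides and cofactors, 3 rose and 1 fell. Slc25a42, which imports coenzyme A, measured 906.5, 1231.4 and 937.8 in kidney against 105.6, 106.4 and 140.6 in reference RNA (3.08 ± 0.19, adjusted p = 0.0001). A second probe set of this gene was called the opposite way: every kidney array lay below background, and it was at least 1.96-fold lower in kidney (adjusted p = 0.00871), and with the mean of its probe sets the call was lost (0.61, adjusted p = 0.0629). Which probe set reports the main transcript was not tested.

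Slc25a51, the mitochondrial NAD importer, measured 8468.6, 8443.3 and 8852.6 in kidney against 4002.8, 4051.9 and 3776.9 in reference RNA. Each kidney array was above each reference array (1.12 ± 0.11, adjusted p = 0.000546). Slc25a17, which carries cofactors into peroxisomes rather than mitochondria, gave 1104.8, 896.2 and 1046.8 against 597.7, 548.1 and 570.9 (0.82 ± 0.14, adjusted p = 0.00354). With the mean of their probe sets neither kept its call (0.63, adjusted p = 0.0526 for Slc25a51, and 0.30, adjusted p = 0.290 for Slc25a17). Slc25a32, a carrier of folate or FAD, fell, with 136.1, 104.4 and 204.8 in kidney against 417.3, 285.4 and 390.8 in reference RNA (−1.31 ± 0.29, adjusted p = 0.0104), and its other probe set was called lower too (−1.38).

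The pyrimidine nucleotide carriers were not called. Slc25a33 lay at 169.1 to 182.7 in kidney and spread over 173.2 to 401.6 in reference RNA (−0.54 ± 0.31, adjusted p = 0.177), and it was called lower only without replicate 2 of the reference (−0.82, adjusted p = 0.0468). Slc25a36 overlapped between kidney (9764.3 to 11744.3) and reference RNA (9777.7 to 10447.3; 0.08 ± 0.13, adjusted p = 0.593). Its probe sets disagreed, since another of the 3 was called higher (999.8, 914.4 and 1100.8 in kidney, against 391.0, 386.3 and 332.3; 1.43 ± 0.14, adjusted p = 0.000489), and the remaining one was not called (−0.45 ± 0.34, adjusted p = 0.293).

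Amino acid carriers were higher in kidney in 6 of 8 tested, and none was called lower. The largest change was that of Slc25a13, the aspartate/glutamate exchanger citrin of the malate-aspartate shuttle. It measured 1029.8, 832.2 and 699.1 in kidney, against 57.2, 98.7 and 51.1 in reference RNA (3.59 ± 0.29, adjusted p = 0.000235). The lowest kidney array was far above the highest reference array. Its promoter window (gene ID 50799, minus strand of chr6:6217124-6217423 on GRCm38.p6) holds an E-box and a CCAAT box, which are in capitals.
Slc25a13: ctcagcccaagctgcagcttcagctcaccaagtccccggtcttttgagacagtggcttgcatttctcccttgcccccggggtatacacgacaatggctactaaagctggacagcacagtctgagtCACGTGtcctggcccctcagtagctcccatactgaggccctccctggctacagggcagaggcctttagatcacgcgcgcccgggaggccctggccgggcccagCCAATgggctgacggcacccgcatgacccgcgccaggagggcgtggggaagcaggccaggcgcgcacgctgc

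Slc25a15, which brings ornithine into the matrix, measured 7790.8, 7450.8 and 7304.3 in kidney against 1241.1, 902.3 and 1231.6 in reference RNA. The kidney arrays lay close together and apart from the reference (2.75 ± 0.17, adjusted p = 9.32e-05), and its other probe set gave 2.59. Slc25a44, a carrier of branched-chain amino acids, gave 2527.8, 2925.4 and 2546.0 in kidney against 862.8, 852.2 and 691.4 (1.73 ± 0.15, adjusted p = 0.000307). The 3 carriers that follow had smaller differences by the probe set standing for each gene, although their groups did not overlap. Slc25a29, of basic amino acids, rose by 0.81 ± 0.21 (adjusted p = 0.0183), Slc25a26, of S-adenosylmethionine, by 0.80 ± 0.21 (adjusted p = 0.0198) and Slc25a22, a glutamate carrier, by 0.62 ± 0.14 (adjusted p = 0.0124). The call for Slc25a26 was lost without any 1 of the reference arrays (adjusted p = 0.0509 to 0.0581). That for Slc25a29 was lost without kidney replicate 2 or reference replicate 1 (adjusted p = 0.0550 and 0.0545). Of 4 tested probe sets of Slc25a29, 3 were called higher and 1 was not called, with log2 fold changes of 0.61 to 2.14.

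Slc25a12, the second aspartate/glutamate exchanger, was not called, although its kidney arrays (595.0, 536.8 and 536.2) lay above the reference arrays (452.8, 432.5 and 435.7; 0.33 ± 0.12, adjusted p = 0.0522). It was called higher under quantile normalization (0.45, adjusted p = 0.0183) and after centring each array on its median (0.58, adjusted p = 0.0097), and another of its 3 probe sets was called higher (1.90 ± 0.41, adjusted p = 0.00923). The remaining one was not called (−0.74 ± 0.39, adjusted p = 0.147). Slc25a38, which brings glycine into the matrix for haem synthesis, overlapped between groups (67.2 to 133.6 in kidney, 43.8 to 94.5 in reference RNA; 0.32 ± 0.38, adjusted p = 0.483). Slc25a2, an ornithine carrier, and Slc25a18, a glutamate carrier, had means below background in every group and were not tested.

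The carboxylate carriers rose together, with 3 of 3 called higher. Slc25a10 exchanges malate or succinate for phosphate, sulfate or thiosulfate. It measured 1250.3, 1076.1 and 1240.6 in kidney against 173.0, 121.7 and 143.5 in reference RNA (3.00 ± 0.17, adjusted p = 7.52e-05), and its other probe set gave 3.30. Slc25a1, the citrate carrier, gave 297.9, 288.7 and 378.8 in kidney against 114.0, 121.5 and 90.8 (1.53 ± 0.18, adjusted p = 0.000969). Slc25a11, which exchanges oxoglutarate for malate, gave 968.7, 993.2 and 1018.3 in kidney against 408.5, 357.3 and 446.8 (1.29 ± 0.13, adjusted p = 0.000604). For none of the 3 did the kidney and reference arrays overlap. The Slc25a10 promoter window (gene ID 27376, plus strand of chr11:120491587-120491886 on GRCm38.p6) has a GC box on each strand near the start.
Slc25a10: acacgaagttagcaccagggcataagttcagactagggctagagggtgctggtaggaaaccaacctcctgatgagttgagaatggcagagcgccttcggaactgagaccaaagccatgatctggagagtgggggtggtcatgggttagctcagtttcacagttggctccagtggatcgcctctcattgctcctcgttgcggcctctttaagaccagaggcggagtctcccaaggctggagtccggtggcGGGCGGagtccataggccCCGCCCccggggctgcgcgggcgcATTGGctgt

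Metal and phosphate carriers differed from each other in direction. Slc25a37, mitoferrin 1, the iron importer best known from developing red cells, fell, with 1231.6, 1109.9 and 1248.3 in kidney against 3210.4, 2473.2 and 3870.5 in reference RNA (−1.39 ± 0.20, adjusted p = 0.00189). Slc25a28, mitoferrin 2, the importer of other tissues, overlapped between kidney (755.2 to 792.9) and reference RNA (742.5 to 839.3) and had a log2 fold change of 0.01 ± 0.12 (adjusted p = 0.953).

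Slc25a3, which carries phosphate and copper, measured 7177.2, 7000.8 and 6715.9 in kidney against 4821.6, 5429.9 and 5156.7 in reference RNA (0.44 ± 0.12, adjusted p = 0.0215). A second probe set was called lower (289.4, 181.6 and 204.8 in kidney against 456.4, 445.5 and 474.7; −1.04 ± 0.20, adjusted p = 0.00604), and the mean of both reversed the sign (−0.30, adjusted p = 0.128). The call was also lost without kidney replicate 1 or 2, or reference replicate 1 or 3 (adjusted p = 0.0534 to 0.0698), and with no filter on low signals (adjusted p = 0.0867).

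Of the 3 carriers of carnitine and glutathione, 2 rose. Slc25a20, which exchanges acylcarnitines for carnitine in fatty acid oxidation, measured 9676.1, 10524.2 and 10015.3 in kidney against 4253.0, 4446.9 and 3590.4 in reference RNA (1.30 ± 0.14, adjusted p = 0.000631). Its groups did not overlap, and its second probe set gave 2.55 ± 0.19. Slc25a39, a glutathione importer, gave 7069.3, 7994.1 and 7636.6 in kidney against 2985.8, 3154.4 and 4036.4 (1.17 ± 0.16, adjusted p = 0.00178), and all 4 of its tested probe sets were called higher. Its paralogue Slc25a40 overlapped between groups (322.8 to 725.9 in kidney, 591.1 to 1025.1 in reference RNA; −0.62 ± 0.36, adjusted p = 0.180).

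The other or unassigned carriers went both ways, with 6 of 11 tested higher and 3 lower. Slc25a16, a carrier linked to coenzyme A, measured 3604.5, 3381.3 and 3556.3 in kidney against 550.5, 507.1 and 580.2 in reference RNA. Both groups were tight and far apart (2.68 ± 0.12, adjusted p = 3.67e-05). Slc25a35 gave 263.9, 177.6 and 154.5 in kidney against 18.9, 11.7 and 37.1 (3.01 ± 0.40, adjusted p = 0.00152, and 2.35 with signals under background raised to it). Slc25a34 gave 186.6, 194.9 and 142.3 against 47.8, 62.7 and 5.7 (2.46 ± 0.75, adjusted p = 0.0314).

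The wide error of Slc25a34 came with 1 reference array, below background at 5.7. Without it the log2 fold change was 1.59 (adjusted p = 0.00496), and the call was lost without any 1 of the kidney arrays (adjusted p = 0.0608 to 0.0789) and with no filter on low signals (adjusted p = 0.0552). Slc25a48 rose by 2.37 ± 0.35 (adjusted p = 0.00229), with 345.9, 273.3 and 195.8 in kidney against 58.8, 29.3 and 63.5 in reference RNA. Slc25a45 (2.12 ± 0.22) and the carrier first described in kidney, Slc25a30 (1.23 ± 0.12), were also called higher, and Slc25a53 lower (−1.08 ± 0.31). These 3 were picked with their values in view, outside the naming rule. Of 3 tested probe sets of Slc25a30, 2 were called higher and 1 was not called, with log2 fold changes of 0.48 to 1.35.

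Slc25a27, a brain carrier related to the uncoupling proteins, fell, with 106.9, 125.1 and 134.1 in kidney against 928.3, 585.0 and 738.0 in reference RNA (−2.56 ± 0.21, adjusted p = 0.000243). Its second probe set was not called (−1.64). Slc25a47, known as a hepatocyte carrier, lay below background in every kidney array (9.5, 12.8 and 7.5) against 51.9, 66.8 and 56.5 in the reference arrays, which makes it at least 1.74-fold lower in kidney (adjusted p = 0.000319). Slc25a14, an uncoupling protein relative (−0.21 ± 0.23), and Slc25a46, an outer membrane protein of mitochondrial dynamics (0.13 ± 0.14), were not called (adjusted p = 0.459 and 0.476). Slc25a54 was below background in every group mean and was not tested.

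**Figure D2:**
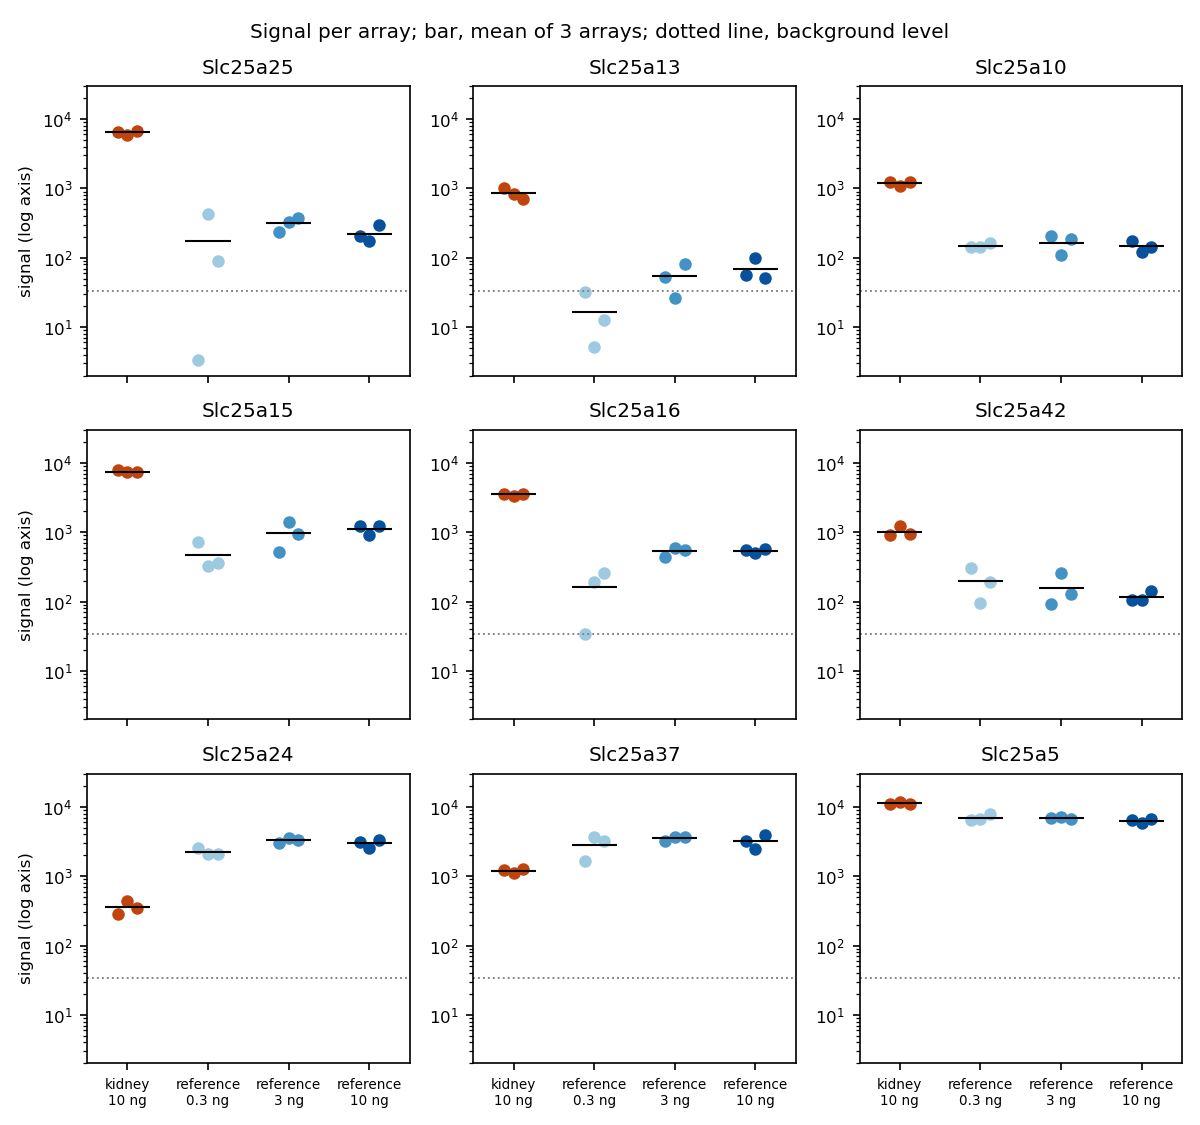
Signal of 9 carriers on each array (points, log axis), by group: kidney 10 ng, then reference RNA at 0.3, 3 and 10 ng; bars are means of 3 arrays and the dotted line is the background level of 33.65. The kidney points of Slc25a25 lie at 5853.0 to 6825.5, above every reference point, and those of Slc25a24 at 289.4 to 444.5, below every reference point.

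Several carriers have more than 1 probe set, and these give a reading of the same RNA that is independent of the choice of a representative. Among 20 carriers with several tested probe sets, all were called the same way in 10, none was called in 2, some but not all were called in 6, and opposite calls were made in 2, Slc25a3 and Slc25a42. Of all 27022 tested probe sets, 60.1% were called in either direction, which is a share of single probe sets and not of agreement. How often the probe sets of 1 gene agree over all genes was not computed. Whether these counts are usual therefore cannot be told. Probe sets of 1 gene differ in where along the transcript they lie, and no probe positions were used here.

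**Figure D3:**
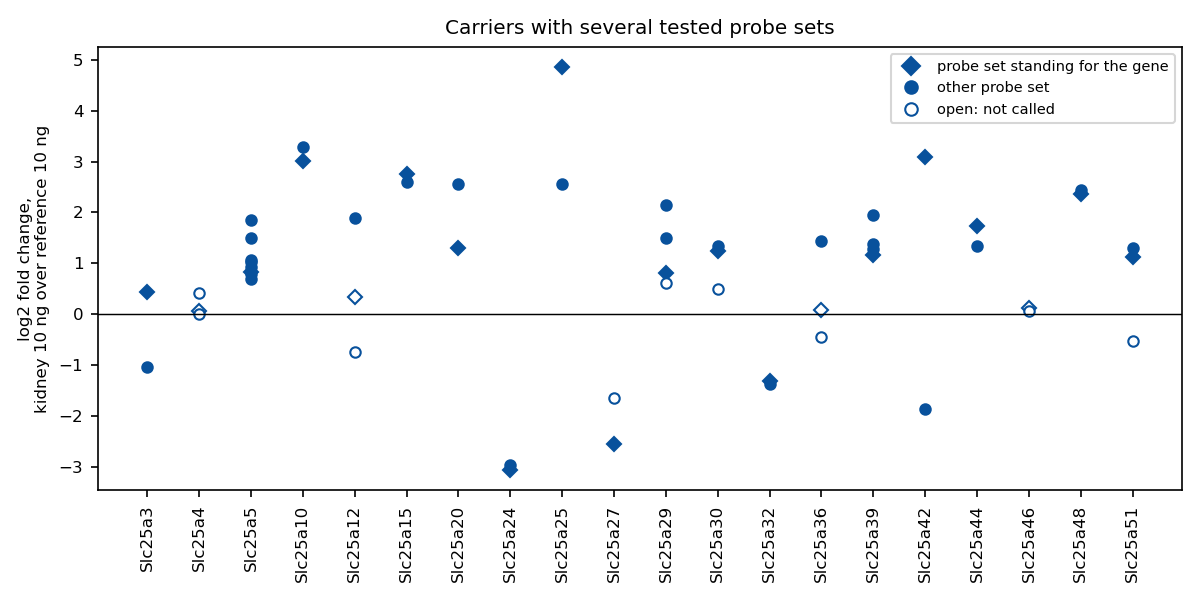
Log2 fold change of every tested probe set of the 20 carriers with several (vertical axis, kidney 10 ng over reference 10 ng); diamonds stand for the gene and open symbols were not called. The 8 probe sets of Slc25a5 all lie above 0, while those of Slc25a42 lie at 3.08 and −1.86.

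Genes around the carriers were taken from lists of relatives and of enzymes that use the carried substrates. These lists were chosen with earlier results of these data known, so counts over them are descriptions and not tests. Of 13 tested relatives, outer membrane channels and import factors, 1 (the uncoupling protein gene Ucp1) passed the filter only through kidney. Of the other 12, 3 were called higher, near the 27.1% of all genes, and 0 lower, where 35.6% of genes were. The 3 were Mpc1, a pyruvate carrier subunit (1.88 ± 0.13), Timm10, a chaperone of carrier import (0.80 ± 0.19), and Mtch2, an outer membrane insertase (0.62 ± 0.13). Ucp1 was called higher too (0.97 ± 0.34, adjusted p = 0.0486), but it lay near background. It measured 57.8, 102.3 and 65.6 in kidney against 50.1, 38.4 and 22.7 in reference RNA. The channel genes Vdac1, Vdac2 and Vdac3, through which metabolites reach the carriers, had log2 fold changes of −0.08, −0.08 and −0.03 and were not called.

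Of 25 tested partner enzymes, 5 passed the filter only through kidney and could hardly be called lower: Ckmt1, Cps1, Arg2, Pck1 and Alas2. Of the other 20, which passed it in both RNA sources, 15 rose and 0 fell, beside 27.1% and 35.6% of all genes. Since the list was chosen with earlier results known, these counts do not test the enzymes as a set. For amino acids, 4 of these 4 rose, among them Glud1, glutamate dehydrogenase (1.97 ± 0.12). Arg2, the mitochondrial arginase that makes ornithine, measured 1093.7, 1202.8 and 1323.7 in kidney against 25.8, 51.7 and 28.3 in reference RNA. Cps1, the first step of the urea cycle, measured 510.9, 551.3 and 188.9 against 22.7, 79.8 and 3.3. In both genes 2 of the 3 reference arrays were below background, and with those raised to it, a setting chosen after seeing the data, the log2 differences were 4.82 and 2.96. For carnitine, 4 of 4 rose, including the acyl-CoA dehydrogenase Acadm (3.25 ± 0.15) and the carnitine palmitoyltransferases Cpt2 (2.45 ± 0.18) and Cpt1a (2.38 ± 0.13). For carboxylates, 4 of 7 rose, with Pc, pyruvate carboxylase, at 3.00 ± 0.19, while Acly (−0.08) and Cs (0.02), the citrate lyase and synthase, were not called. The gluconeogenic Pck1 was at least 253-fold higher. For metals, 3 of 4 rose, among them Fech, which inserts iron into haem (1.34 ± 0.17), and Iscu, the iron-sulfur scaffold (1.65 ± 0.12). Alas2, the erythroid haem enzyme on the same list and also a red cell marker, was at least 7.09-fold higher. For nucleotides, the 1 enzyme that passed in both RNA sources, Nme4, was not called (−0.37 ± 0.18, adjusted p = 0.121), with every kidney array below every reference array. The mitochondrial creatine kinase gene Ckmt1, which passed only through kidney, was at least 22.8-fold higher.

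When the reference RNA input was reduced to 3 ng, limma called 0 of the 39 carriers against 10 ng and 0 of all 12820 genes (0%). At an unadjusted p under 0.05 there were 4 carriers, beside 8.46% of all genes, and the smallest adjusted p among the carriers was 0.318. The 3 arrays of one input lay wholly above those of 10 ng for 4 carriers and wholly below for 2, beside 6.59% and 11% of genes. The lowest unadjusted p was that of Slc25a28, with 516.0, 444.2 and 485.4 at 3 ng against 839.3, 742.5 and 745.7 at 10 ng (−0.68 ± 0.14). Slc25a12 (−0.38 ± 0.13), Slc25a44 (0.47 ± 0.15) and Slc25a48 (0.89 ± 0.36) were the others. The median over the tested carriers was 0.03, and −0.05 over all genes.

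At 0.3 ng, limma again called 0 carriers against 10 ng, where 0.554% of genes were called. At an unadjusted p under 0.05 there were 6, beside 13.4% of genes, and the smallest adjusted p was 0.154. The arrays at 0.3 ng lay wholly below those at 10 ng for 10 carriers and wholly above for 2, beside 17.8% and 7.46% of genes. All 6 with an unadjusted p under 0.05 were lower at 0.3 ng. Slc25a53 measured 18.8, 3.4 and 54.1 at 0.3 ng against 176.0, 291.9 and 129.0 at 10 ng (−3.17 ± 0.79, or −2.14 with signals under background raised to it). Slc25a13 lay below background on every 0.3 ng array (32.4, 5.2 and 12.5), at least 2.05-fold lower than at 10 ng.

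The others of the 6 were Slc25a16, Slc25a15, Slc25a28 and Slc25a22. Slc25a16 measured 34.3, 194.4 and 255.5 at 0.3 ng against 550.5, 507.1 and 580.2 at 10 ng (−2.13 ± 0.74). Slc25a15 measured 727.3, 329.1 and 357.7 against 1241.1, 902.3 and 1231.6 (−1.33 ± 0.38). Slc25a28 had −1.13 ± 0.42 and Slc25a22 −0.74 ± 0.21, and in none of the 4 did the arrays of the 2 inputs overlap. All 8 tested amino acid carriers had a log2 fold change below 0, with a median of −0.51, where the median over all genes tested was −0.21. Of the 12820 genes tested, only 4607 had one above 0, and the 3 carriers of carnitine and glutathione also lay below 0 (median −0.54).

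The spread between arrays was wider at lower input. The median SD of log2 signal over the tested carriers was 0.12 in kidney, and for the reference arrays it was 0.68 (0.3 ng), 0.34 (3 ng) and 0.21 (10 ng). Over all genes the same SD was 0.20 in kidney, and 0.61, 0.27 and 0.21 at those inputs of the reference. A range of more than 2 on the log2 scale between the 3 arrays was seen for 15 of 39 carriers at 0.3 ng, beside 25.9% of all genes, for 3 at 3 ng (5.63% of genes) and for 1 at 10 ng (3.56%). Single arrays stood apart in different carriers. Slc25a25 measured 3.3, 427.2 and 89.0 at 0.3 ng, Slc25a44 41.0, 2720.2 and 1562.6, and Slc25a20 279.4, 2611.1 and 2806.6. Slc25a14 measured 5841.4, 946.5 and 1034.4, and Slc25a47, at most 97.8 on the arrays of other groups, 1029.8, 119.6 and 68.2.

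Of these, replicate 1 at 0.3 ng was lowest for Slc25a25, Slc25a44 and Slc25a20 and highest for Slc25a14 and Slc25a47. Over the 39 carriers, it was the lowest of the 3 arrays in 15 and the highest in 18, replicate 2 the lowest in 12 and the highest in 10, and replicate 3 the lowest in 12 and the highest in 11. Of the 36 carriers above background on all 3 reference arrays at 10 ng, 5 fell below it on an array at 0.3 ng (13.9%, beside 13.8% of all genes). They were Slc25a13, Slc25a25, Slc25a33, Slc25a45 and Slc25a53. At 3 ng there were 2 such carriers, Slc25a13 and Slc25a47 (5.56%, beside 3.40% of genes).

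**Figure D4:**
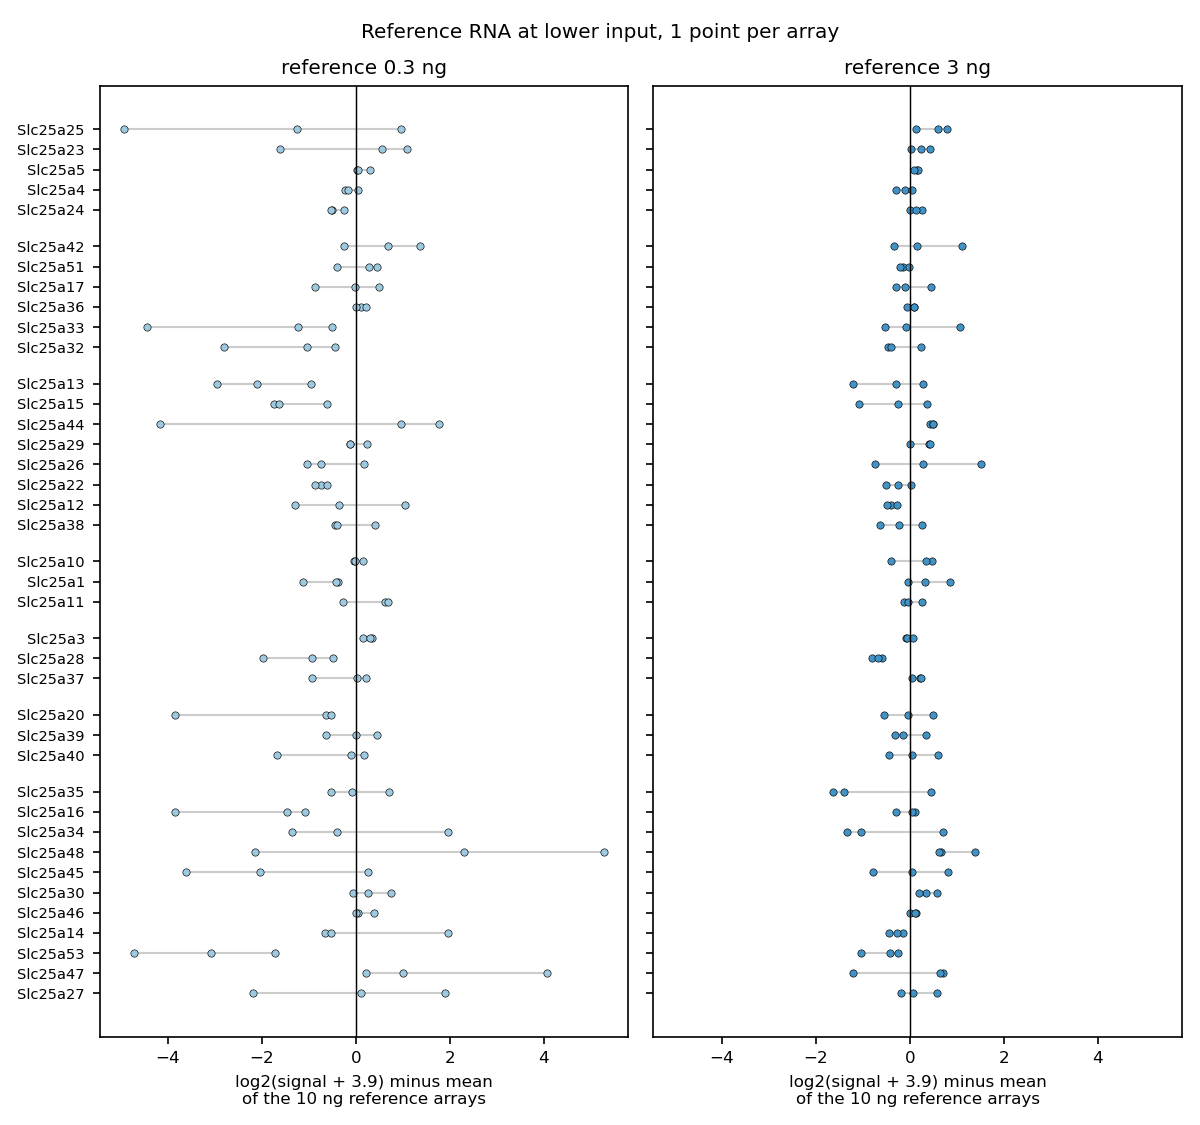
Deviation of each reference array at 0.3 ng (left) and 3 ng (right) from the mean of the 10 ng reference arrays, as log2(signal + 3.9), for the 39 tested carriers; each point is 1 array and the grey line joins the lowest and highest. The points spread over more than 2 units for 15 carriers at 0.3 ng and for 3 at 3 ng.

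The 3 kidney arrays were also set against the reference at lower inputs, which changes RNA source and input together and uses the same kidney arrays each time. Against 3 ng, 25 carriers were called higher (26.4% of genes) and 5 lower (31.4%), 57.8% of genes in either direction. Without replicate 3 of the reference at 3 ng, 3 carriers were called lower, beside 7826 of the 27022 tested probe sets (9422 with all arrays). The largest changes were those of Slc25a25 (log2 fold change 4.35 ± 0.21, but 2.28 with the mean of its probe sets), Slc25a13 (4.0 ± 0.41), Slc25a35 (at least 5.90-fold) and Slc25a15 (3.07 ± 0.37), and among the lower Slc25a24 (−3.20 ± 0.20), Slc25a27 (−2.72 ± 0.24), Slc25a47 (at least 2.12-fold lower) and Slc25a37 (−1.55 ± 0.14). The call of Slc25a47 was lost without kidney replicate 3 or replicate 2 or 3 of the reference at 3 ng (adjusted p = 0.0533 to 0.0550). Slc25a28, named after its value was seen, had a log2 fold change of 0.69 ± 0.13 against 3 ng (adjusted p = 0.00703) and 0.01 ± 0.12 against 10 ng.

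Against 0.3 ng, 14 carriers were called higher (20.9% of genes) and 2 lower (16.7%), 37.6% of genes in either direction. Without any 1 kidney array the higher count was 8 and the lower count 1. Over all 27022 tested probe sets, 3086 to 3106 were then higher and 2423 to 2458 lower (4904 and 4510 with all arrays). The lower count of carriers was 4 without replicate 1 at 0.3 ng and 1 without replicate 2, beside 4863 and 4129 of the tested probe sets. Slc25a25 had a log2 fold change of 6.60 ± 1.45 (adjusted p = 0.0187), which became 5.003 without replicate 1 of the reference at 0.3 ng, 7.96 without replicate 2 and 2.66 with the mean of its probe sets. Its call was lost without any 1 kidney array (adjusted p = 0.0611 to 0.0640). Slc25a13 was at least 25.4-fold higher (adjusted p = 0.00115), Slc25a16 had 4.81 ± 0.75, or 3.95 without replicate 1 at 0.3 ng, and Slc25a15 had 4.08 ± 0.36. The lower calls were Slc25a24 (−2.63 ± 0.26, adjusted p = 0.00123) and Slc25a47 (adjusted p = 0.0300), below background on every kidney array. The fitted value of Slc25a47 was −3.94 with all arrays and −2.79 without replicate 1 at 0.3 ng. After dim kidney signals were raised to the background level, these became −2.48 and −1.33, and the call was lost without any 1 kidney array or replicate 2 at 0.3 ng (adjusted p = 0.0507 to 0.0949).

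Promoter windows of RefSeq were found for 34 of the 44 carriers, 43 windows of 300 bases in all, and were searched on both strands for short motifs. No motif searched is contained in another. The GC box GGGCGG was in 37 of the 43 windows (86.0%), beside 35.7% of all 32851 windows. By gene it was in 19 of 20 carriers called higher, 2 of 3 called lower, 7 of 8 not called and 1 of 3 not tested. The share of 35.7% is by window, and no share by gene over all genes is given here. The CCAAT box, CCAAT, was in 21 windows (48.8%, beside 37.4%) and the E-box CACGTG in 8 (18.6%, beside 7.15%).

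The cyclic AMP response element TGACGTCA was in 2 windows, of Slc25a25 and Slc25a36 (4.65%, beside 1.79%). It starts at base 101 of the Slc25a25 window shown above, which is 52.3% GC, where the Slc25a24 window is 72.3%, the Slc25a13 window 65% and the Slc25a10 window 59.7% GC. The TATA box TATAAA was in 1 window, of Slc25a18 (2.33%, beside 13.6%). In none of the 43 windows were the letters CAAAGTCCA (0.475% of all windows) or TCAAGGTCA (0.423%), known as elements of HNF4 and of estrogen-related receptors. A match is a run of letters in this window and says nothing of binding.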

How the data were processed

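Kidney RNA at 10 ng and reference RNA at 0.3, 3 and 10 ng were measured on 3 arrays each, and the titles of the samples gave the groups. The authors deposited 1 linear intensity per probe set and array. From the values themselves, each array's 2% trimmed mean was 500. How the authors summarised probes is not given in the sources used here, nor is the amplification or the origin of replicates.

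Values were used as deposited, as log2(signal + 3.9), the pseudocount being the 10th percentile of positive values. Of 45101 probe sets, 64 controls were left out, and the 27022 whose highest group mean exceeded 65.4 (the 40th percentile) were tested with limma 3.58.1 in R 4.3.3 (lmFit, eBayes, the 2 groups only, no covariates, two-sided). P-values were Benjamini-Hochberg adjusted over all tested probe sets. The fits were tested on simulated data. Figures were drawn and tables joined with Python 3.11.15.

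GEO's platform annotation gave 1 symbol to 34945 probe sets and several to 932, which were not used. The probe set naming a gene alone with the highest mean log2 signal stands for it. Background, 33.65, is the 95th percentile of signal over 27 Bacillus probe sets that serve as controls. Where every array of the dimmer group was below it, the fold is a lower bound, the mean signal of the brighter group over it.

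In each substrate group, up to 6 called carriers with the largest fold change and 2 not called were named, and up to 4 per direction in other comparisons. Members, lists, motifs and naming rule were chosen with earlier results of these data known. Alternatives were the pseudocount, filter, normalization, fit, replicate block, probe set rule and leaving out each array.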

Additional observations from a re-analysis of the deposited data

How the results depend on the processing

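The counts for kidney against the reference at 10 ng, 24 higher and 6 lower, were 25 and 5 both with quantile normalization and with arrays centred on their medians. The centring moved the median of all 27022 tested probe sets to −0.09 on the log2 scale (−0.34 as deposited). Their calls became 7540 higher and 7805 lower (6201 and 10045), and 6836 and 8845 with quantile normalization. With all 12 arrays in 1 fit, which pools the spread of all 4 groups, 17 carriers were higher and 3 lower against 10 ng. Against 3 ng there were 17 and 3 (25 and 5 as reported), and against 0.3 ng 21 and 4 (14 and 2). In that fit 2 carriers were lower at 0.3 ng than at 10 ng (0), beside 1391 of all 27022 tested probe sets (206). Calls over all tested probe sets moved too, to 4507 higher and 7484 lower against 10 ng (6201 and 10045). Against 3 ng they were 4652 and 7741 (5886 and 9422), and against 0.3 ng 6538 and 6826 (4904 and 4510). Of the carriers named by the rule at 10 ng, that fit lost the calls of Slc25a17, Slc25a20, Slc25a26, Slc25a32, Slc25a34, Slc25a44, Slc25a47 and Slc25a48 (adjusted p = 0.0571 to 0.264). The counts fell by more than this list holds. Slc25a30, Slc25a45 and Slc25a53 were outside the rule, and whether each kept its call in that fit is not given here. Leaving out 1 array gave 21 to 23 carriers higher and 5 to 7 lower against 10 ng, and 22 to 23 and 3 to 5 against 3 ng. Against 0.3 ng it gave 8 to 18 and 1 to 4, and the input comparisons had 0 in both directions. Over all tested probe sets it gave 5510 to 5824 higher and 8338 to 9235 lower against 10 ng. Against 3 ng those counts were 4997 to 5555 and 7826 to 8192, and against 0.3 ng 3086 to 5382 and 2423 to 4863. Same-numbered arrays did not deviate together (r = −0.06 to 0.02 over 18 pairs), so the numbers are not taken as pairs. With the replicate number as a block, 23 carriers were higher and 7 lower against 10 ng, and 9 were higher against 0.3 ng (14 without the block). Over all tested probe sets, 5642 were higher and 9008 lower against 10 ng with the block, and 3726 were higher against 0.3 ng (4904 without it). In that block Slc25a3 lost its call (adjusted p = 0.0716) and Slc25a40 gained one (0.0424). Signs reversed for Slc25a3 with the mean of its probe sets (−0.30), for Slc25a14 with centring (0.033) and when 1 array was left out (−0.40 to 0.015), and for Slc25a28 when 1 array was left out (−0.021 to 0.067). The causes were not tested. With 3 arrays a group and an SD near 0.68 at 0.3 ng, small changes at low input were not detectable and large ones could go uncalled. Slc25a53 (−3.17) and Slc25a16 (−2.13) were not called by limma at 0.3 ng against 10 ng (adjusted p = 0.154 and 0.261). The 5 carriers near or below background were not tested.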
